A study of Rattus norvegicus with 7 samples.

Results

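The first 6 Mb of rat chromosome 6 held 1657 of the 5092 Arteridin peaks listed in this series, and those 1657 peaks are described here. They were chosen by position alone: a peak was taken when its summit, the base of highest signal, lay below position 6000000 of chromosome 6 in either of the 2 Arteridin lists. The list labelled ORF, from A10 cells overexpressing Arteridin, contributed 961 of its 3013 peaks (31.9%, 95% Wilson interval 30.3 to 33.6). The list labelled CTR, from A10 cells without that overexpression, contributed 696 of 2079 (33.5%, 31.5 to 35.5). The region was picked because peaks had been seen to be dense there, so the number of peaks in it is a description and not a finding.

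A10 is an established smooth muscle line from rat thoracic aorta. Plasmids were introduced by lipid transfection, the Arteridin antibody was a custom rabbit antibody against the full-length protein, and the reads were single-end with 50 nt. Each condition was represented by 1 ChIP library, so no difference between ORF and CTR has a replicate check, and 1 input library carries the Arteridin label. The labels do not say whether CTR cells received an empty plasmid.

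Vascular smooth muscle cells can leave a contractile state for a proliferative one, and Arteridin is a protein product of a gene named for that switch. In ChIP-seq, fragments bound to the antibody's target are enriched, sequenced and placed on the genome, and a peak is a place where reads pile up beyond the level expected from the input, which is chromatin sequenced without enrichment. A narrow peak marks a short site of this kind, as a sequence-specific factor would give. A long run of many weak narrow peaks is a different shape, in which the reads of a wide stretch exceed the expected level at many separate points. No annotation or sequence of the build used by the Arteridin lists, Rnor_6.0 by its sequence names, was used here, so no gene, repeat class or motif is given for any peak.

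Peaks were arranged in blocks separated by long stretches with no peak in either list. Joining the members of both lists across gaps of up to 100 kb, and keeping groups of at least 20, gave 4 dense stretches covering 2.95 Mb, or 49.1% of the region. These held 958 of the 961 ORF peaks and 694 of the 696 CTR peaks, a share that the joining rule itself favours. The remaining 3 ORF and 2 CTR peaks lay scattered between positions 2394592 and 2520448. Stretch 1 ran from 8524 to 1142034 with 314 ORF and 213 CTR peaks, and stretch 2 from 2620588 to 2673075 with 16 and 17. Stretch 3 ran from 2809159 to 3787697 with 541 and 402, and stretch 4 from 4883978 to 5666887 with 87 and 62. Stretch 3 was the fullest and stretch 4 the sparsest in both lists, at 11.1 ORF and 7.92 CTR peaks per 100 kb.

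**Figure D1:**
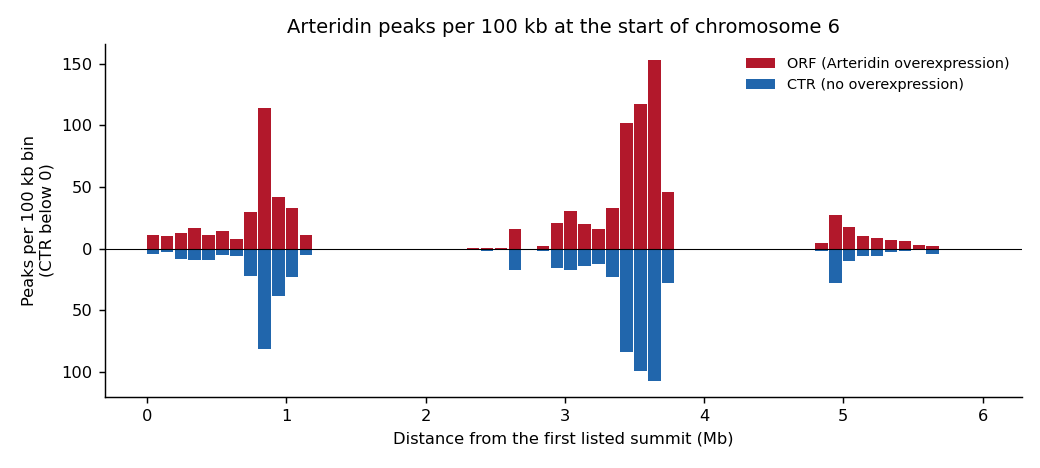
Number of Arteridin peaks per 100 kb bin against the distance in Mb from the first listed summit, with ORF drawn upward and CTR downward. The fullest bin held 153 ORF and 107 CTR peaks, and 25 bins were empty in both lists, with 2 further bins empty in CTR alone.

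Empty stretches took up nearly as much of the region as the dense ones. Stretches of at least 100 kb with no peak of either list numbered 5 and came to 2.92 Mb, or 48.6% of the 6 Mb. The longest ran from 1142035 to 2394591 (1253 kb), between the end of stretch 1 and the first scattered peak. The next ran from 3787698 to 4883977 (1096 kb), between stretches 3 and 4. The region closed with 333 kb without a peak from 5666888 to 6000000, which was part of a gap of 505 kb that ended at the first ORF peak past the limit. Shorter gaps lay from 2673076 to 2809158 (136 kb) and from 2520449 to 2620587 (100.1 kb). A YBX1 peak of cells overexpressing the start-codon mutant of lncPSR was listed inside the second of these gaps, from 4005016 to 4005851 (fold 4.79, −log10 q 1.91). The YBX1 lists use other chromosome names, which do not give a build. If their build is the same, that library had reads placed within a gap where Arteridin had no peak. How much of each gap could be reached by reads of 50 nt was not tested.

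The counts of the lists per 100 kb bin went together. Of the 60 bins, 35 held an ORF peak and 33 a CTR peak, and all 33 were among the 35, which left 25 bins empty in both lists. The ORF list had more peaks in 30 of the 35 occupied bins, fewer in 4 and as many in 1. Across the 60 bins the peak counts of the lists correlated with a Pearson r of 0.99 and a Spearman rho of 0.98, given as a description only, since the bins share an input, a genome sequence and 25 joint zeros. Over the 35 occupied bins the values were 0.99 and 0.96. In bins of 10 kb the values over all 600 fell to 0.90 and 0.76, with 153 bins occupied in both lists, 219 in ORF and 179 in CTR.

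Most peaks sat in a few bins. The 5 fullest ORF bins held 532 peaks (55.4%) and the 5 fullest CTR bins held 409 (58.8%), with 4 bins common to both sets of 5 as ordered by count and position. In ORF the fullest were 3600001 to 3700000 with 153 peaks, 3500001 to 3600000 with 117, and 800001 to 900000 with 114. In CTR they were 3600001 to 3700000 with 107, 3500001 to 3600000 with 99, and 3400001 to 3500000 with 84. In the bin with 153 ORF peaks, listed peaks numbered 1.43 times those of CTR (95% exact binomial interval 1.11 to 1.85, counting error only). ORF peaks were also the more numerous over the whole lists, 3013 against 2079. The third CTR bin held 102 ORF peaks and the third ORF bin held 81 CTR peaks.

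Within stretches 1 and 3, crowding began and ended over short distances. The steps named here were found after the positions were seen. They are 3 places where the peak count of both lists together differed widely between the 50 kb before and the 50 kb after. Other large changes, such as the rise into the bin from 800001 to 900000, are not described. At position 870000 the count fell from 79 ORF and 55 CTR peaks to 31 and 19. At 3390000 it went from 9 in each list to 59 ORF and 49 CTR peaks. At 3750000 it went from 43 ORF and 27 CTR peaks to 3 and 1. Both lists stepped in the same direction at each place, which the choice by their joint count favours. The expected level at the summits, which follows the input, had medians of 2.34 (ORF) and 2.65 (CTR) times the genome background before 3390000, over 9 peaks each, and 2.07 and 1.60 times after it. At 870000 it went from 1.295 to 1.28 in ORF and from 1.28 to 1.16 in CTR, lower on the side with fewer peaks. At 3750000 it went from 1.24 to 1.38 in ORF and from 1.13 to 1.10 in CTR, the later values resting on 3 peaks and 1. The part of the input in these steps was not tested.

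Neighbouring summits were close in both lists. The distance from one summit to the next had a median of 869.5 bp in ORF and 1108 bp in CTR, with middle ranges of 378.5 to 2709 bp and 430.5 to 3208.5 bp. The smallest distances were 75 and 81 bp, above the shortest peak lengths of 53 and 52 bp. Under 200 bp lay 86 of 960 ORF distances (8.96%) and 52 of 695 CTR distances (7.48%). Distances of 200 to 1000 bp made up 45.0% and 39.6%, and those of 10000 bp or more 8.54% and 10.9%. For the peaks between 6 and 12 Mb, the nearest comparable group, the medians were 1481 bp in ORF and 1908.5 bp in CTR. Peaks of one stretch share reads, input and sequence context, so these distances carry no test.

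**Figure D2:**
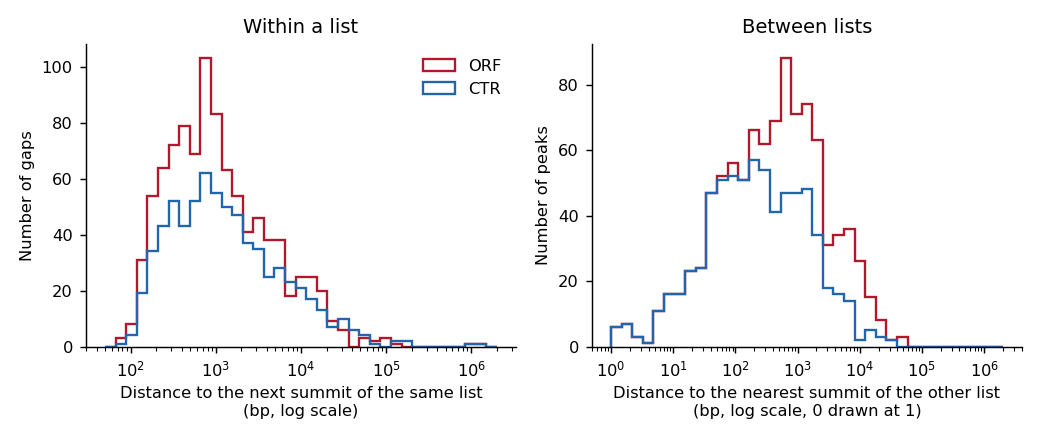
Left, number of distances from each summit to the next of the same list; right, number of peaks by distance to the nearest summit of the other list; both axes of distance are in bp on a log scale. Medians within a list were 869.5 bp (ORF) and 1108 bp (CTR), and medians between lists were 454 bp from ORF peaks and 207 bp from CTR peaks.

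Joining peaks of one list over gaps of up to 1000 bp turned the 961 ORF peaks into 413 clusters and the 696 CTR peaks into 348. Single peaks made up 273 of the ORF clusters and 226 of the CTR clusters, so 71.6% of ORF and 67.5% of CTR peaks had a neighbour this close. Clusters of 5 or more numbered 42 in ORF, with 449 peaks, and 28 in CTR, with 249 peaks. The ORF cluster with the most peaks, from 849109 to 863461, packed 30 peaks into 14353 bp, where CTR listed 19. The next held 25 ORF peaks from 3388019 to 3399019 (15 in CTR) and 22 from 837999 to 848091 (19 in CTR). In CTR the cluster with the most peaks, from 2667187 to 2673073, held 17, where ORF listed 13. The clusters were thus runs of short peaks with bases between them that no peak covered.

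**Figure D3:**
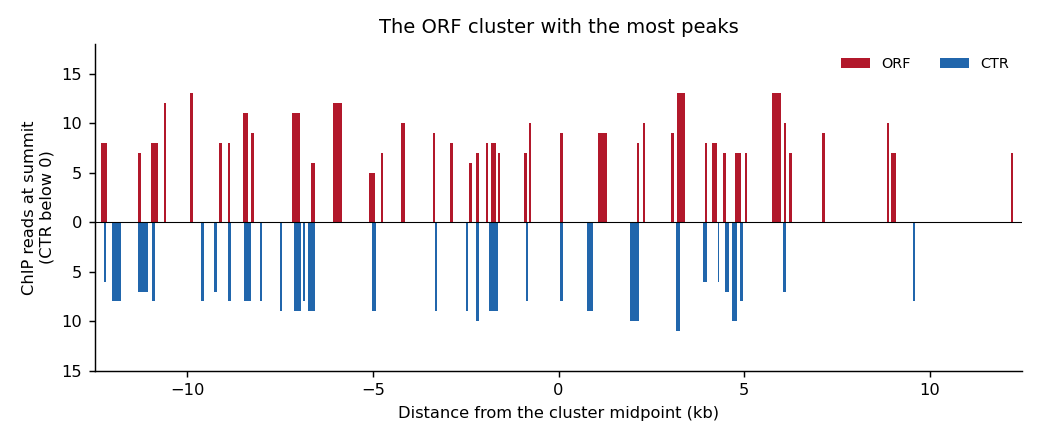
Peaks around the ORF cluster with 30 peaks, against the distance in kb from the cluster's midpoint; bar width is the peak length and bar height the reads at the summit, with ORF upward and CTR downward. ORF and CTR peaks interleave along the cluster and only some lie opposite each other.

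Peaks were short and most were weak. The median length was 88 bp in ORF (middle range 60 to 127) and 82 bp in CTR (60 to 117.25), against 81 and 79 bp over the whole lists. At the shortest length of their list lay 162 ORF peaks (16.9%) and 120 CTR peaks (17.2%). In total the ORF peaks covered 103.9 kb of the region and the CTR peaks 68.9 kb, or 1.73% and 1.15%. The authors' fold over the expected level ran from 2.75 to 14.6 in ORF with a median of 5.69, and from 2.504 to 9.87 in CTR with a median of 5.71. The stricter −log10 q limit of 5 was met by 167 ORF peaks (17.4%, against 16.2% of the whole list) and 99 CTR peaks (14.2%, against 15.2%), which is near the whole lists in both cases.

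The longest peaks of each list lay at separate places. In ORF they ran from 2669123 to 2669864 (742 bp, 42 reads at the summit), from 1107685 to 1108382 (698 bp, 52 reads) and from 3541783 to 3542354 (572 bp, 12 reads). In CTR they ran from 3392782 to 3393205 (424 bp, 10 reads), from 3421235 to 3421623 (389 bp, 9 reads) and from 3551676 to 3552048 (373 bp, 9 reads). The first ORF peak of the chromosome, from 8524 to 8576, had 7 reads and the first CTR peak, from 13354 to 13438, had 6. At the limit of the region, the last ORF peak inside ran from 5661999 to 5662051 (6 reads) and the first outside from 6171616 to 6171668 (7 reads). The last CTR peak inside ran from 5666767 to 5666887 (8 reads), and the first outside was at 6481770 to 6481840 (7 reads).

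Each fold and p-value could be turned back into the reads behind it. The caller's fold is the number of reads at the summit plus 1 over the expected level plus 1, and its p is a Poisson probability, so that a whole number of reads and a level could be solved for all 961 and 696 members, each with a single solution. The median member had 8 reads at its summit in either list, and the range was 5 to 52 in ORF and 5 to 50 in CTR. The genome background, the lowest level in a list, was 0.361 in ORF and 0.349 in CTR. Divided by the shortest peak length, this gave 6818 ORF and 6716 CTR reads per Mb, a depth ratio of 1.02. The worth of 1 input read gave the same ratio, 1.02. It is not a second check, since the background stood for 72.6 input reads per 10 kb in both lists. With so few reads at a typical summit, a peak called in one list and absent from the other need not differ in reads beyond counting error.

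Every expected level in the region could be read as a whole number of input reads. The levels matched, within 5e-05, either the genome background or whole input reads within 1 fragment length, 1 kb or 10 kb around the summit. About 2.01% (ORF) and 2.08% (CTR) of possible values lie that close to a 10 kb step. In ORF the background set the level at 135 peaks (14.05%), the fragment at 249, the 1 kb window at 249 and the 10 kb window at 328 (34.1%). In CTR the numbers were 105 (15.1%), 165, 193 and 233 (33.5%). A 10 kb count that is a multiple of 10 gives the same level as a 1 kb count. Such levels were put with the 1 kb window, so the 1 kb numbers may include some set by 10 kb windows. Where the 10 kb window set it, the input count had a median of 89 reads in both lists, against a genome average of 72.6. Where the fragment set it, 216 of 249 ORF levels and 139 of 165 CTR levels rested on a single input read. At shared peaks where both levels came from 10 kb windows, 46 of 73 pairs gave the same input count and 67 were within 1 read, the largest difference being 4.

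Since the level is the highest of these 4 estimates, it is an upper limit on the local input average. The median level over the genome background was 1.34 in ORF and 1.295 in CTR. By stretch it was 1.24 in both lists in stretch 1, 22.1 and 19.4 in stretch 2, 1.41 and 1.38 in stretch 3, and 1.10 and 1.07 in stretch 4. At the 135 ORF and 105 CTR peaks at the background, the input was not above its genome average in any of the windows. The share of such peaks was lowest in stretch 3 (6.47% of ORF, 8.46% of CTR) among the 3 long stretches and highest in stretch 4 (37.9% and 41.9%).

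**Figure D4:**
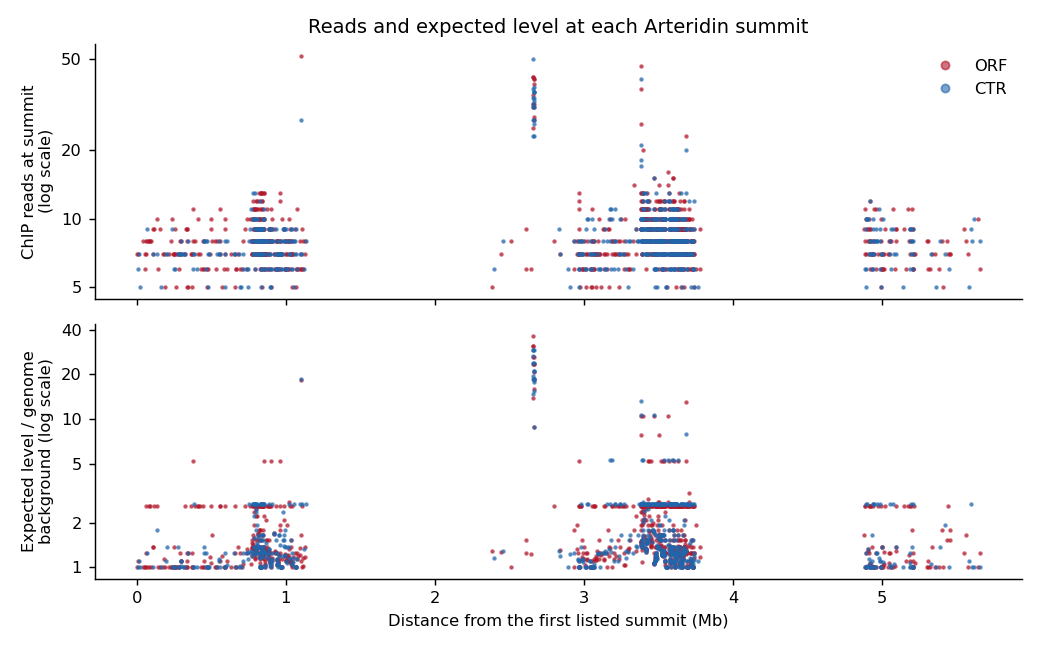
Reads at the summit (upper panel, log scale) and expected level over the genome background (lower panel, log scale) for each of the 961 ORF and 696 CTR peaks, against the distance in Mb from the first listed summit. Most peaks have 5 to 14 reads at a level of 1 to 3 times the background. The highest levels, up to 36.4 times, lie in the column of points of stretch 2. Some peaks elsewhere, such as the pair with 52 ORF and 27 CTR reads near the end of stretch 1, also lie far above 3 times.

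The reads at the summits alone exceeded the genome average in the fullest bins. Summits of a list were farther apart than a fragment length, so 1 read covers at most 1 summit and the sum over summits is a lower limit on the ChIP reads there. In the bin from 3600001 to 3700000 the summits summed to 1317 reads in ORF, 1.93 times the 681.8 expected from the genome average, and to 895 in CTR, 1.33 times 671.6. The expected level there had medians of 1.32 and 1.28 times the background. From 800001 to 900000 the sums were 980 and 659 reads, or 1.44 and 0.981 times the average, at levels of 1.37 and 1.32. The sums were above the genome average in 4 ORF bins and 3 CTR bins. At 10 kb, the bin from 840001 to 850000 held 179 ORF and 139 CTR reads, which is 2.63 and 2.07 times the average, at median levels of 1.17 and 1.24. From 3400001 to 3500000 the sums were 1.39 (ORF) and 1.10 (CTR) times the average, below the median levels of 1.99 and 1.67. From 3500001 to 3600000 they were 1.55 and 1.24 times, at median levels of 1.52 in both lists. The sums were thus higher than the median level in some of the full bins and lower in others, and the part of the input in these sums was not tested.

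Stretch 2 stood apart in its input. Its core, from 2667181 to 2673075, packed 13 ORF peaks and, from 2667187 to 2673073, 17 CTR peaks into 5895 and 5887 bp, covering 51.3% and 45.5% of the bases. Summit reads ran from 25 to 42 in ORF (median 32) and from 23 to 50 in CTR (median 33). The expected level ran from 8.76 to 36.4 times the genome background in ORF and from 8.81 to 29.2 in CTR, and folds were accordingly low, with medians of 4.04 and 4.11. The levels matched up to 14 input reads within 1 fragment length (ORF) and up to 141 within 1 kb (CTR). At the last peak of the core, input reads over 10 kb numbered 636 by the ORF level and 639 by the CTR level, 8.76 and 8.81 times the genome average. Of these peaks, 12 ORF and 15 CTR were shared with the other list. The other 3 peaks of the stretch were ORF peaks at 6 to 9 reads. The part of the raised input in these calls was not tested.

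The only overlap with YBX1 in the region lay in that core, if the YBX1 lists use the same build, which their chromosome names do not give. A YBX1 peak from 2672278 to 2672676 in cells overexpressing tagged Arteridin (fold 3.12, −log10 q 1.73) met 2 ORF peaks, from 2672070 to 2672414 (31 reads) and from 2672478 to 2672842 (41 reads). It also met 2 CTR peaks, from 2672060 to 2672407 (38 reads) and from 2672533 to 2672832 (36 reads). The ORF levels at these sites were 5.73 and 9.40 reads, and the CTR levels 6.48 and 5.39, all far over the background. The region held 1 of 608 YBX1 peaks in that list, 1 of 341 with the lncPSR mutant and 0 of the 82 in the list labelled NC.

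Positions of single peaks were shared in part. At least 1 bp of a CTR peak was met by 262 of the 961 ORF peaks (27.3%, 95% Wilson interval 24.5 to 30.2), where the whole ORF list, these peaks included, gave 22.6%. Of the 696 CTR peaks, 270 (38.8%, 35.2 to 42.5) met an ORF peak, against 33.2% of the whole CTR list. Between 6 and 12 Mb the shares were 16.8% (15.0 to 18.7) of ORF and 25.8% (23.2 to 28.5) of CTR, and over the rest of the lists 33.5% and 45.4%. These intervals cover counting error only and treat neighbouring peaks as separate. Chance overlap grows with density and length, which differ between the groups, so the shares of these groups are not compared further.

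Summits of shared peaks nearly coincided but bounds did not. Each of the 262 shared ORF peaks was paired with the CTR peak that it overlapped most. Of these CTR peaks, 11 were the partner of more than 1 ORF peak, and their reads enter each such pair. The median distance between the summits of a pair was 44.5 bp, 3 of 262 pairs had the same summit and none the same bounds. A summit of the other list lay within 100 bp of 250 ORF peaks (26.0%, whole list 21.3%) and 246 CTR peaks (35.3%, whole list 30.4%). Within 1000 bp lay 641 ORF peaks (66.7%, whole list 56.2%) and 537 CTR peaks (77.2%, whole list 71.6%).

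Sharing followed the number of reads. Of the 367 ORF peaks with 5 to 7 reads 71 were shared (19.3%, 15.6 to 23.7), of the 359 with 8 to 9 reads 90 (25.1%, 20.9 to 29.8), and of the 212 with 10 to 14 reads 79 (37.3%, 31.0 to 43.9). Of the 23 with 15 or more reads, 22 were shared (95.7%, 79.0 to 99.2). In CTR the shares in the same classes were 28.4%, 39.4%, 50.9% and 91.7%, the last being 22 of 24. This highest class was largely 1 place, the core of stretch 2, which held 13 of its ORF and 17 of its CTR peaks. Peaks covered 51.3% (ORF) and 45.5% (CTR) of the bases there, and the part of coverage in this sharing was not tested. Over all classes the whole lists gave 22.6% (ORF) and 33.2% (CTR), and their shares by class were not computed. Shared ORF peaks were longer than the others, with medians of 125 and 79 bp, as were shared CTR peaks, with 100.5 and 73 bp. A longer peak has more bases that can be met, so length and sharing are tied by the measure itself.

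Sharing also varied along the position. In the first 700 kb, a limit not among the settings chosen beforehand, peaks were sparse. There 5 of 84 ORF peaks (5.95%) and 5 of 44 CTR peaks (11.4%) were shared. In the bin from 800001 to 900000 it was 46 of 114 (40.4%) and 46 of 81 (56.8%). By stretch, the ORF share was 22.9% in stretch 1, 12 of 16 peaks in stretch 2, 31.1% in stretch 3 and 11.5% in stretch 4. The CTR share was 33.8%, 88.2%, 43.0% and 16.1% in the same order. Among the 3 long stretches, those with more peaks per 100 kb had the higher shares in both lists. Chance overlap also grows with density, so these shares are a description only, and the part of density in them was not tested.

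Reads at shared peaks were alike in both libraries. The ORF over CTR ratio of summit reads, corrected for depth, had a median of 0.985 over the 262 pairs, the same as over all 680 shared ORF peaks, and its middle 95% ran from 0.657 to 1.75. A ratio of 1.5 or more was seen at 21 pairs (8.02%, against 7.65% of all shared ORF peaks) and a ratio as far below 1 at 9 (3.44%, against 5%). Before the correction for depth, ORF had more reads at 124 pairs, fewer at 85 and as many at 53. After it, the 53 equal pairs have a ratio of 0.985, just below 1. The 95% exact binomial interval of the ratio lay above 1 at 1 of the 262 pairs and below 1 at 0, against 4 (0.588%) and 1 (0.147%) of all 680. Pairs had passed the caller in both lists, which keeps out sites where one library was low.

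**Figure D5:**
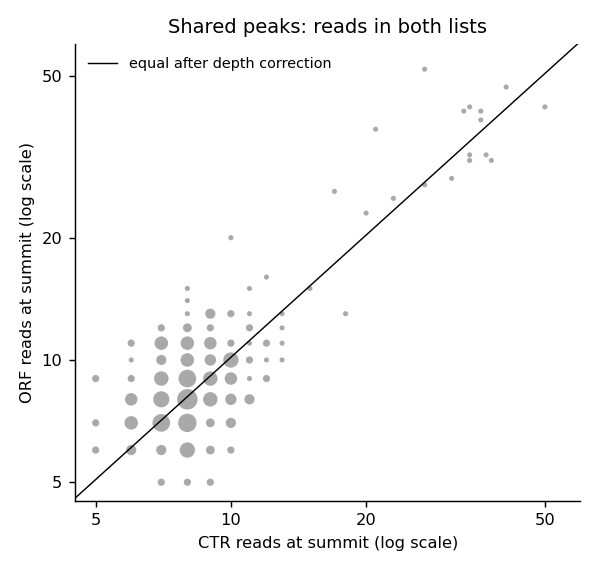
ORF reads against CTR reads at the summits of the 262 shared pairs (log scales); the area of a point grows with the number of pairs at that value and the line marks equal reads after correction for depth. Points scatter on both sides of the line, and the pair with 52 ORF and 27 CTR reads lies farthest above it among those with over 20 reads in each.

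The pair whose interval lay above 1 had its ORF peak from 1107685 to 1108382 and its CTR peak from 1107894 to 1108143, near the end of stretch 1. It had 52 reads in ORF, the most in the region, and 27 in CTR, a ratio of 1.90 (1.17 to 3.14). The level at the summit came from 7 input reads within a fragment length in each list. It is described for its reads, and a single such pair among 262 is near the rate over all shared peaks.

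Among the 10 pairs with the most reads, which include this one, 8 lay in the core of stretch 2. Their ratios ran from 0.804 (31 ORF and 38 CTR reads, ORF peak from 2672070 to 2672414) to 1.22 (41 and 33 reads, ORF peak from 2671013 to 2671409), with every interval spanning 1. The pair with the most reads together there had 42 in ORF, from 2669123 to 2669864, and 50 in CTR, from 2669541 to 2669860, a ratio of 0.827 (0.536 to 1.27). The last of the 10 lay in stretch 3, with 47 reads in ORF from 3389856 to 3390114 and 41 in CTR from 3389865 to 3389980, a ratio of 1.13 (0.727 to 1.76). Its fold was 10.1 in ORF and 7.46 in CTR, against levels of 4 and 5 input reads within the fragment.

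That pair belonged to the strongest group of peaks outside stretch 2, at the step near 3390000 described above. Its other peaks were chosen after their values were seen. The ORF peak of highest fold, 14.6, ran from 3388147 to 3388595 with 26 reads, at a level that matched 17 input reads within 1 kb. CTR split the same place into 3388309 to 3388472 (17 reads) and 3388531 to 3388755 (18 reads, the highest CTR fold at 9.87). Farther on, 3389575 to 3389779 had 37 ORF reads and 3389714 to 3389765 had 21 CTR reads. The summits of highest fold in the 2 lists were 147 bp apart.

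Peaks listed without a partner had at most 35 reads in ORF and 36 in CTR. Those with 15 or more reads, picked after their values were seen, all lay in the core of stretch 2: the ORF peak from 2668033 to 2668161 (35 reads, fold 2.93) and the CTR peaks from 2667823 to 2667906 (27 reads, 2.504) and from 2670886 to 2670943 (36 reads, 3.97). By fold, the 6 highest ORF peaks without a partner were 862031 to 862289 (13 reads, fold 9.35), 3341787 to 3341926 (14 reads, 9.11), 850200 to 850453 (12 reads, 8.92), 5081512 to 5081639 (11 reads, 8.81), 565854 to 565913 (11 reads, 8.58) and 3487818 to 3487882 (11 reads, 8.58). A CTR summit lay 110 bp from the last of these and 7884 bp from the second. The 6 highest CTR peaks without a partner were 3691993 to 3692069 (13 reads, fold 9.67), 3423677 to 3423854 (13 reads, 9.58), 834023 to 834136 (12 reads, 8.78), 3428838 to 3428935 (12 reads, 8.64), 4987497 to 4987561 (11 reads, 8.55) and 3435677 to 3435753 (12 reads, 8.50). The nearest ORF summits lay between 157 and 5719 bp from them. Reads at these places in the list without a peak are not known.

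The ORF list held more peaks than the CTR list in the region, 961 against 696, a ratio of 1.38 (95% exact binomial interval 1.25 to 1.52), with a depth ratio of 1.02. This was not particular to the region, since the whole lists held 3013 ORF and 2079 CTR peaks. Between 6 and 12 Mb the counts were 1610 and 1059, and over the rest 442 and 324. Within the region, the ratio was 1.47 (1.23 to 1.76) in stretch 1, 0.941 (0.445 to 1.98) in stretch 2, 1.35 (1.18 to 1.54) in stretch 3 and 1.40 (1.002 to 1.98) in stretch 4. Counting clusters within 1000 bp in place of peaks gave 1.19 over the region and 1.03 in stretch 3. With a −log10 q of at least 5 it gave 49 and 17 peaks in stretch 1, a ratio of 2.88. The intervals describe counting error between single libraries and say nothing of the spread between cultures.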

How the data were processed

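ChIP-seq peak lists of A10 cells were used: 2 Arteridin lists (ORF, CTR; 1 library each), with YBX1 lists for overlap. The submitters' processing notes name MACS2, Bowtie2, SAMtools, HOMER and FastQC; the sources used here do not give versions, cutoffs or duplicate filters. The build was read from the sequence names of the Arteridin lists as Rnor_6.0, and coordinates count from 1. The YBX1 lists use plain chromosome names that do not give a build, and the same build was assumed for them. Deposited columns hold, from the authors' caller, a score, a fold (a ratio), −log10 p and −log10 q values and the distance to the summit (other). Overlap meant at least 1 bp, and counts were repeated with bedtools 2.31.1. Reads and levels were solved within 0.0001 in −log10 p, which was tested on simulated data, as was the assignment to input windows. That test counted a 10 kb level put with the 1 kb window as right where both fit. It thus could not show how often this happened. Shares carry Wilson and ratios exact binomial 95% intervals, for counting error only.

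Members, lists, the linking rule and named peaks were chosen with earlier results of these data known. Named were the 10 shared pairs with the most reads, the 6 unshared peaks of highest fold and 3 longest of each list, first, last and bordering peaks, those meeting YBX1, the 3 fullest 100 kb bins, the 5 longest gaps and all dense stretches; others are said to have been picked later. Alternatives changed thresholds, overlap, merging, bin width and gap length. The lists give no total depth; background levels gave 6818 and 6716 reads per Mb. Gene names and sequences were not analysed here.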

Additional observations from a re-analysis of the deposited data

How the results depend on the processing

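Of 60 alternatives, 33 stayed within the interval of the value, or within 1.5 times a count, and 27 did not. ORF and CTR peaks numbered 167 and 99 at a stricter −log10 q (5 or more), 376 and 265 with a fold of at least 6, and 413 and 348 after merging within 1000 bp. The ORF share meeting the other list was 10.3% with reciprocal overlap of 50%, 66.7% with summits within 1000 bp and 19.2% at the stricter −log10 q for both lists, and the CTR share 14.2%, 77.2% and 30.3%. Median summit distances were 2623.5 bp (ORF) and 4672.5 bp (CTR) with that −log10 q, and 4467.5 and 4293 bp after merging. Median lengths were 128 and 98 bp with that −log10 q, and 104.5 and 89 bp with the stricter fold. The ratio of ORF to CTR peak counts with that −log10 q was 1.69 over the region, 2.88 in stretch 1 and 1.62 in stretch 3. In stretches 2 and 4 it was 0.727 and 1.10, within their intervals. After merging it was 1.19 over the region, 4 in stretch 2 (4 clusters against 1) and 1.03 in stretch 3. The CTR expected level over the background was 1.25 with the stricter fold. Stricter thresholds and merging leave fewer, stronger or wider units by construction; beyond that the cause was not tested. Leaving out stretch 2, which was decided on after the data were seen, left the shares at 26.5% and 37.6%. No paired analysis was possible because ORF and CTR were single libraries. Most summits rest on 5 to 14 reads, which limits what presence or absence in a list can show.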
